A study of Homo sapiens with 26 samples.

Results

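The microRNA pathway was followed here through 10 genes in the human neuroblastoma line KELLY. They were chosen by symbol from the 26485 genes of the deposited tables, and all 10 were present and passed the filter on low counts in both tables. They comprise MIR17HG, the transcript from which the miR-17-92 microRNAs are cut, and LIN28B, the RNA-binding repressor of let-7 maturation. The others are the nuclear processing genes DROSHA and DGCR8, the export receptor XPO5, the cytoplasmic processing genes DICER1 and TARBP2, and the Argonautes AGO1, AGO2 and AGO3. KELLY is an established cell line with amplified MYCN. RNA was sequenced from 18 cultures and 8 tumours grown from KELLY cells in mice, and the purpose was to follow knock-down of the transcriptional co-repressor RUNX1T1.

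All 18 cultures carried a doxycycline-inducible lentiviral vector, written F1HUTG in the labels. It was empty (EV) or held one of the hairpins against RUNX1T1, sh4 or shAMB. Cells of each line received DMSO or doxycycline for 72 h, with 3 libraries in each of these 6 groups. The genotype labels of the hairpin lines carry a number that runs on from library to library, so the groups were read from the titles. The 8 tumours, called xenografts here, were grown under the skin of NOD SCID gamma mice, a strain that lacks T, B and NK cells. Of these, 4 are labelled WT with control food and 4 RUNX1T1 KO with doxycycline food. By the methods of the study all tumours grew from cells with a hairpin, so KO is used below as a label only. For the KELLY xenografts the study used its hairpin based on an Ambion sequence, which the label shAMB appears to name. On that reading the tumours and the shAMB cultures share a hairpin, and likeness between them is not independent evidence. The labels give no feeding time, and no xenograft group with an empty vector was analysed here. Nothing says that cultures with one label were started separately, so p-values measure only the spread between these libraries, which may be technical.

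A microRNA gene is transcribed as a long primary transcript, which DROSHA and its partner DGCR8 cut in the nucleus to a hairpin. XPO5 carries the hairpin to the cytoplasm, DICER1 with TARBP2 trims it to a short duplex, and an Argonaute protein keeps one strand as the mature microRNA. The mature strand finds its messenger RNAs mainly through its seed, and silencing follows through TNRC6 proteins and the deadenylases they recruit. In neuroblastoma MYCN is known to activate MIR17HG, and LIN28B is known as an oncogene that lowers let-7, which in turn targets MYCN.

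The mature products of MIR17HG are shown because their seeds define what the transcript measured below can give rise to. The seed, bases 2 to 8, is in capitals. Sequences and positions are from RefSeq on GRCh38.p14, the assembly behind the hg38 build named by the submitters.
hsa-miR-17-5p: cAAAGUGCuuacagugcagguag
hsa-miR-20a-5p: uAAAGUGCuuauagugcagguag
hsa-miR-18a-5p: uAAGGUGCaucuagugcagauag
hsa-miR-19a-3p: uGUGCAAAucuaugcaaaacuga
hsa-miR-19b-3p: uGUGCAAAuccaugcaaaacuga
hsa-miR-92a-3p: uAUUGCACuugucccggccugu

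The miR-17 and miR-20a seeds are the same, those of miR-19a and miR-19b are the same, and miR-18a and miR-92a each have their own. All 6 lie in an exon of MIR17HG (chr13:91347687-91354577, plus strand), from chr13:91350618-91350640 for miR-17-5p to chr13:91351361-91351382 for miR-92a-3p. The let-7 family, whose maturation LIN28B blocks, is shown by the mature strands of 3 members, which share a seed.
hsa-let-7a-5p: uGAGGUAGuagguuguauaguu
hsa-let-7i-5p: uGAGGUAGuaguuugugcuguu
hsa-miR-98-5p: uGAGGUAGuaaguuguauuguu

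The libraries do not report mature microRNAs. The 6 rows for the microRNA genes of the cluster and the 11 let-7 rows held 0 counts in every library. Of 1879 microRNA rows, 32 had any count in culture and 10 in the xenografts. The values below are therefore those of the long transcripts. The kit in the labels is for stranded total RNA, whereas the molecule is labelled polyA RNA.

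The culture libraries held 35115915 to 54736733 counts and the xenograft libraries 47346063 to 62378060. Member counts ranged from 307 for TARBP2 to 37888 for DICER1. RUNX1T1 itself did not check the labels: doxycycline against DMSO gave no call on its transcript in any line, nor did the KO label against control in the xenografts (log2 fold change -0.16 for EV, -0.11 for sh4, 0.056 for shAMB and -0.23 for the tumours, adjusted p 0.67, 0.12, 0.38 and 0.23, edgeR quasi-likelihood test). Between lines, RUNX1T1 was lower in sh4 than in EV with DMSO (-0.29, adjusted p = 0.014), and its shAMB effect was above the EV effect (0.21, adjusted p = 0.035). RUNX1T1 was called lower in sh4 without the second doxycycline library (-0.16, adjusted p = 0.043). With GC content and length trends removed RUNX1T1 was called lower in sh4 (-0.18, adjusted p = 0.0049) and in the tumours (-0.33, adjusted p = 0.038), and on log2(TPM + 1) values higher in shAMB (0.23, adjusted p = 0.0039, limma). The labels are used as they stand. All 10 adrenergic neuroblastoma markers exceeded 1 CPM (a count scaled to a common library size) in every group, with summed levels of 2586.6 to 3531.7 CPM in culture and 2044.0 to 3660.4 CPM in the xenografts. The 6 leukocyte and macrophage markers were low but moved with the groups. They summed to 0.65 to 0.776 CPM in shAMB with DMSO and 1.52 to 2.33 CPM with doxycycline, and to 1.17 to 1.63 CPM in control xenografts and 1.83 to 2.8 CPM in those labelled KO, with at most 1.37 CPM in the sh4 and EV libraries. HBA1 and HBB were at 0 in every group. In culture the 6 endothelial markers summed to 2.92 to 4.98 CPM without an induced hairpin, 5.88 to 10.2 CPM in sh4 with doxycycline and 7.09 to 9.86 CPM in shAMB with doxycycline. Fibroblast markers ran from 75.2 to 139.7 CPM in culture, from 57.8 to 94.7 CPM in control xenografts and from 85.5 to 129.8 CPM in those labelled KO. The 4 Schwann cell markers summed to 5.17 to 6.97 CPM in control xenografts and 2.6 to 3.17 CPM in those labelled KO. The part of these differences in the results below was not tested. In bulk RNA, fewer cells of a type and less RNA per cell cannot be told apart. The third sh4 doxycycline library stood apart from the others of its group (chi-square per degree of freedom 62.7 and 45.9 against it, at most 34.8 in the other culture groups), so sh4 results are also given without it where it matters. Tumours of a group differed more from each other. This value ran from 27.5 to 248 between control xenografts and from 38.5 to 186 between those labelled KO.

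Compared per kilobase of transcript, the members spanned a wide range of levels. In the EV cultures with DMSO, LIN28B stood highest at 73.5 CPM per kb and XPO5 followed at 56.2 CPM per kb. DROSHA had 40.8, MIR17HG and DGCR8 each 27.0, and DICER1 24.6 CPM per kb. AGO1 had 14.4, TARBP2 6.33, AGO2 4.93 and AGO3 4.17 CPM per kb. AGO1 was thus the leading Argonaute transcript. In control xenografts the order began alike with LIN28B at 91.6 and XPO5 at 53.7 CPM per kb, and DICER1 followed at 49.0 CPM per kb, but the xenograft table was scaled separately and the levels of both tables were not compared by a test.

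**Figure D1:**
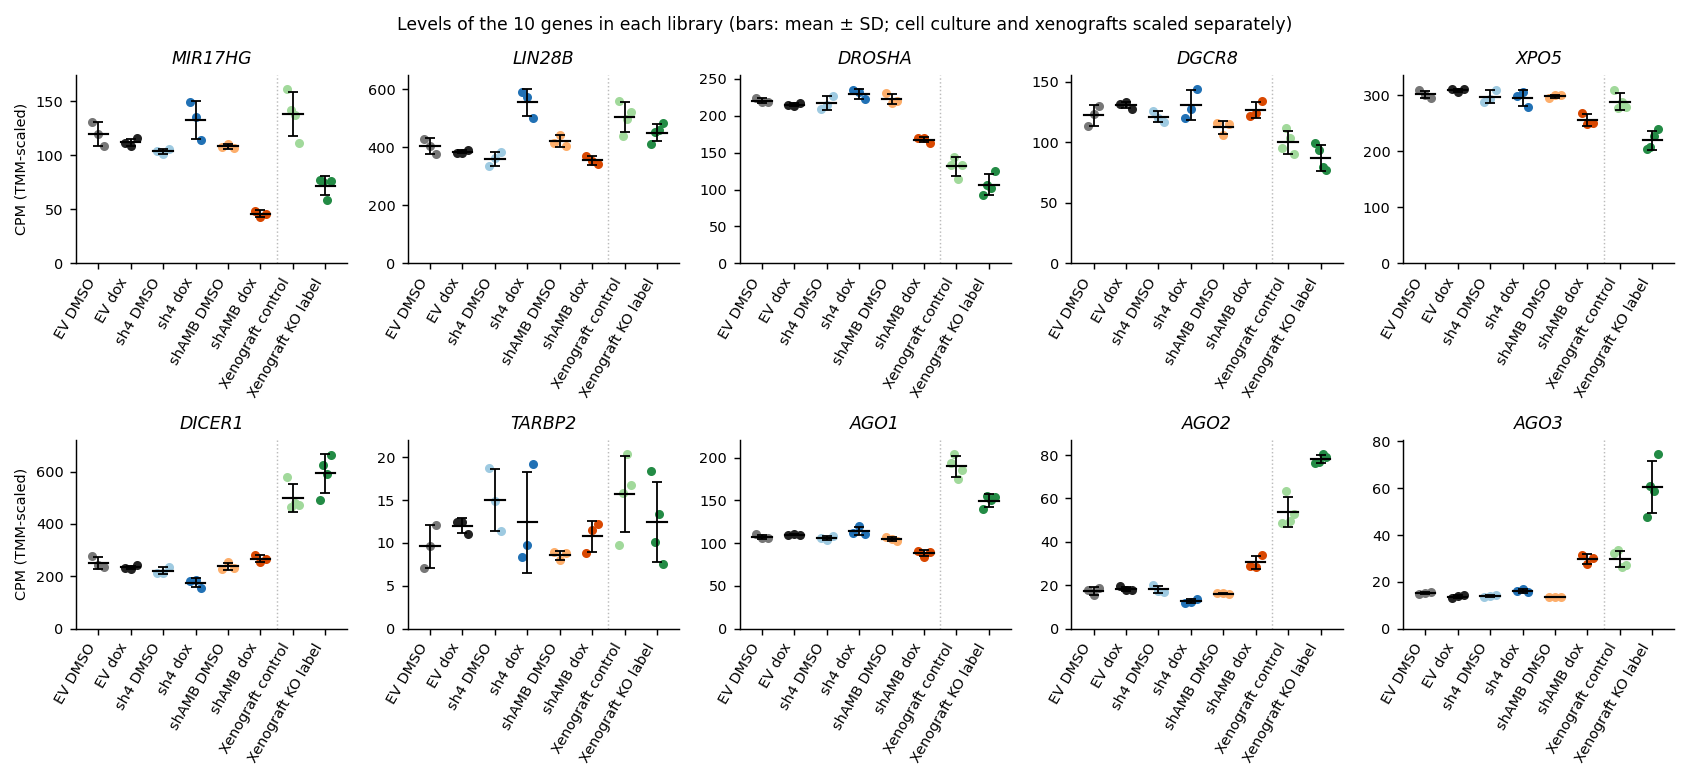
Level of each of the 10 genes in each library (points, CPM) by group, with the group mean as a bar; the cultures and the xenografts were scaled separately. The MIR17HG points lie at 42.4 to 48.8 CPM in shAMB with doxycycline and at 101.0 CPM or above in every other culture group.

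Doxycycline alone moved none of the 10 genes past the threshold in the EV line, where 0.0939% of 14905 tested genes passed (edgeR quasi-likelihood test, adjusted p under 0.05). By DESeq2 the count of members was also 0. In the edgeR test 1 gene, AGO3, had an unadjusted p under 0.05. The EV groups did not overlap for AGO3 (means 15.2 CPM in DMSO and 13.6 CPM in doxycycline) or DROSHA (220.5 and 215.0 CPM). Groups this small can separate without a call, so separation is given below as a description. Its share over all genes was not counted. With sh4, doxycycline changed 6 of the 10 genes, 4 upward and 2 downward, against 40.9% of all genes (22.9% higher and 18% lower). With shAMB it changed 8 of 10, 3 upward and 5 downward, against 66% of all genes (37.6% higher and 28.4% lower). In the xenografts 6 of 10 differed, 2 higher and 4 lower in the tumours labelled KO, against 41.1% of 15960 genes (21.2% higher and 19.9% lower). The members' shares were read against these backgrounds: the median absolute log2 change of the members was 0.25 for sh4, 0.29 for shAMB and 0.34 for the tumours, beside 0.26, 0.42 and 0.35 over all genes. Size of change over the whole set was therefore not above that of other genes, and the account below is of the single genes and their directions.

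Before induction no member was called between the lines. With DMSO, sh4 against EV called 0 members where 1.12% of all genes passed, and shAMB against EV called 0 where 1.52% passed. DESeq2 called 0 in both as well. In the edgeR test 4 and 1 members had an unadjusted p under 0.05.

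MIR17HG moved in opposite directions with the hairpins. With sh4 it read 103.9, 101.0 and 106.0 CPM in DMSO and 148.9, 135.6 and 114.0 CPM in doxycycline, so every treated library was above every control although the third only by a little. With shAMB it read 107.3, 110.4 and 106.4 CPM in DMSO and 48.8, 42.4 and 45.8 CPM in doxycycline. The groups were far apart, and the treated level was under that of every other culture library. The log2 fold change was 0.36 (SE 0.082, adjusted p = 0.0024, edgeR) for sh4 and -1.24 (SE 0.084, adjusted p = 4.4e-09) for shAMB. In EV it was -0.10 (95% interval -0.27 to 0.079), with 130.6, 119.7 and 108.4 CPM in DMSO and 111.6, 108.8 and 115.5 CPM in doxycycline. Without the third sh4 doxycycline library the sh4 value was 0.46 (adjusted p = 6.3e-05).

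In the xenografts MIR17HG read 161.6, 141.8, 137.4 and 111.4 CPM with control food and 77.3, 74.8, 58.7 and 76.5 CPM in the tumours labelled KO. The groups did not overlap, and MIR17HG fell by 0.94 on the log2 scale (SE 0.13, adjusted p = 0.00023, edgeR), a call lost on log2(TPM + 1) values (adjusted p = 0.074, limma). The hairpin effects were also tested against each other within the culture table, with controls shared between these tests. The sh4 effect exceeded the EV effect by 0.45 (adjusted p = 0.0074), the shAMB effect was lower than the EV effect by a log2 difference of -1.15 (adjusted p = 1.2e-06), and sh4 differed from shAMB by 1.60 (adjusted p = 2.1e-08). Of the annotated exon bases of MIR17HG, 26.6% overlap exons of other genes on the opposite strand and 7.84% on the same strand, and whether the counting used strand is not given in the sources used here.

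MYCN, the transcription factor amplified in this line, rose in each of these comparisons. Its log2 fold change was 0.68 with sh4 (adjusted p = 4.6e-06, edgeR), 1.57 with shAMB (adjusted p = 1.8e-10) and 1.46 in the xenografts (adjusted p = 3.1e-05). MYCN and MIR17HG transcripts thus both rose with sh4 and parted with shAMB and in the tumours. For every 100 CPM of MYCN, MIR17HG had 4.61 to 6.09 CPM in the EV libraries and 4.47 to 5.21 CPM in sh4 with DMSO. With sh4 and doxycycline this ratio was 2.79 to 4.59, the lowest value being that of the third library. With shAMB it was 4.91 to 5.19 in DMSO and 0.658 to 0.821 in doxycycline. In the xenografts it was 4.37 to 6.44 with control food and 0.715 to 1.25 in the tumours labelled KO, so the ratio in both low groups lay under that of every other library of its table.

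**Figure D2:**
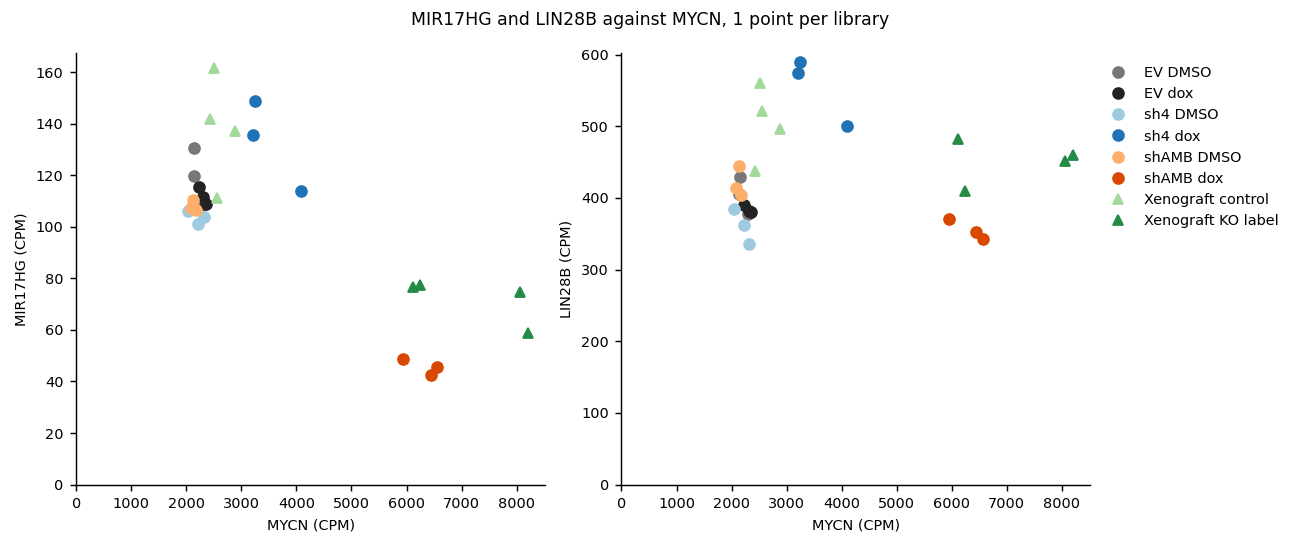
MIR17HG and LIN28B levels against MYCN level in each library (both axes in CPM). The shAMB doxycycline libraries and the xenografts labelled RUNX1T1 KO lie at high MYCN (5943.8 CPM or above) and low MIR17HG (77.3 CPM or below).

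Of the genes listed as regulators of MIR17HG, 8 of 9 were tested. Their counts stand beside 40.9%, 66% and 41.1% of all genes called in sh4, shAMB and the xenografts. In sh4 3 rose and 4 fell (median log2 fold change -0.08, all genes -0.0046), in shAMB 3 rose and 1 fell (median 0.11, all genes 0.096), and in the xenografts 2 were higher and 5 lower (median -0.37, all genes 0.020). MAX, the dimer partner of MYC proteins, fell in all of them, with log2 fold changes of -0.22, -0.59 and -0.48 (adjusted p 0.0036, 1.6e-07 and 0.0023, edgeR). The sh4 and xenograft changes of MAX were not called on log2(TPM + 1) values (-0.043 and -0.35). PIM1, a kinase known to cooperate with MYC, went down in sh4 (log2 fold change -0.41) and up in shAMB and the xenografts (1.21 and 0.95). CCND1, the cyclin of the early cell cycle, had values of -0.15, 0.42 and -0.46, each past the threshold, but 0.024 in sh4 on log2(TPM + 1) values. Its xenograft difference was not called on those values (-0.40, adjusted p = 0.58, limma).

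LIN28B rose with sh4 and fell more modestly with shAMB. In the sh4 line it read 336.1, 361.6 and 383.9 CPM in DMSO and 589.8, 574.8 and 500.0 CPM in doxycycline. In the shAMB line it read 414.4, 443.9 and 403.7 CPM in DMSO and 371.0, 352.1 and 342.1 CPM in doxycycline. Neither pair of groups overlapped. The log2 fold change was 0.62 (SE 0.067, adjusted p = 2.0e-06, edgeR) with sh4 and -0.24 (SE 0.066, adjusted p = 0.0044) with shAMB. In EV the libraries read 429.7, 406.1 and 377.4 CPM in DMSO and 381.5, 381.0 and 390.1 CPM in doxycycline. Against EV, the sh4 effect was larger by 0.70 (adjusted p = 4.5e-05), while the shAMB effect differed by -0.17 (95% interval -0.37 to 0.029, adjusted p = 0.15). The fall with shAMB was also not called on log2(TPM + 1) values, where it was -0.065 (adjusted p = 0.44, limma). The alternatives disagreed on the difference between the shAMB and EV effects. It was called with the compared groups alone (-0.23, adjusted p = 0.024, edgeR) and with GC and length trends removed (-0.12, adjusted p = 0.00075). On log2(TPM + 1) values it was 0.048 and not called. The sh4 and shAMB effects differed by 0.87 (adjusted p = 1.5e-06).

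The xenografts did not show a LIN28B difference past the threshold. Control tumours read 559.8, 438.3, 496.8 and 521.3 CPM and those labelled KO 410.0, 451.4, 459.3 and 482.7 CPM, and the groups overlapped. The log2 difference was -0.16 (95% interval -0.38 to 0.057, adjusted p = 0.22, edgeR). With GC and length trends removed it was called, at -0.22 (adjusted p = 0.023).

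LIN28B has 2 promoter windows in the RefSeq table, each of 250 bases before to 50 after a start. One of them (chr6:104956857-104957156, plus strand, GRCh38.p14) holds CACGTG, the E-box that MYC family dimers are known to bind. Its first base is 47 bases before the start (position -47), and the 30 bases around it are shown with the motif in capitals.
LIN28B: aattgacaaagtCACGTGtgctcagggggc

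The motif reads the same on both strands. It was in 7.26% of all 35116 windows and, by gene, in 8.77% of 27305 genes. Among the members with a window it was in 1 of 9, and AGO2 was not searched. The match is a description of letters only.

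Genes whose profile over the 18 culture libraries was closest to that of LIN28B were DNA2, YES1, RBBP9, KCTD3 and API5, with Pearson r of log2 CPM from 0.987 to 0.994 among 12709 genes. For MIR17HG they were NBPF8, MPHOSPH8, VDAC1, CALD1 and SNAP23, with r from 0.988 to 0.993. These libraries share treatments, so r is a description without a test. Among the members, MIR17HG followed DROSHA (r = 0.970), AGO1 (r = 0.948) and XPO5 (r = 0.891) and ran against AGO2 (r = -0.919) and AGO3 (r = -0.876). Its r with LIN28B was 0.591 and with MYCN -0.801, and that of LIN28B with MYCN was -0.062.

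Let-7 turnover genes beyond LIN28B were examined as a list in which 11 of 14 symbols were present and tested. Among all genes, shAMB called 66%, sh4 40.9% and the tumour comparison 41.1%, and the counts of this list are read against these. In sh4 6 rose and 2 fell (median log2 fold change 0.17, all genes -0.0046). In shAMB 4 rose and 3 fell (median 0.12, all genes 0.096), a split of 3 and 5 with GC and length trends removed, and in the xenografts 2 were higher and 5 lower (median -0.17, all genes 0.020). LIN28A, the paralogue of LIN28B, rose from 0.799 ± 0.072 to 2.41 ± 0.169 CPM (SD, n = 3 each) with sh4 and from 0.744 ± 0.158 to 1.66 ± 0.321 CPM with shAMB (adjusted p 5.0e-06 and 8.6e-05), levels far under those of LIN28B. ZSWIM8, a ubiquitin ligase adaptor of target-directed microRNA decay, had a log2 fold change of 1.30 with shAMB (adjusted p = 9.5e-05, edgeR) and 0.73 in the xenografts (adjusted p = 0.011); with sh4 it was not called. TRIM71, a let-7 target and ubiquitin ligase, rose by 1.07 with shAMB (adjusted p = 2.0e-05) and was not called in the others. PARN, a poly(A) ribonuclease, rose by 0.27 with sh4 and fell by 0.75 with shAMB and by 0.62 in the xenografts. On log2(TPM + 1) values the xenograft differences of ZSWIM8 and PARN were not called (adjusted p 0.15 and 0.36, limma).

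DROSHA, the nuclear nuclease, fell with shAMB. It read 230.8, 217.1 and 220.3 CPM in DMSO and 170.1, 169.5 and 163.3 CPM in doxycycline, with no overlap between the groups (log2 fold change -0.41, SE 0.039, adjusted p = 1.9e-07, edgeR). With sh4 its means were 216.9 ± 9.17 and 230.0 ± 6.85 CPM (SD, n = 3 each) and the log2 fold change of 0.085 missed the threshold (adjusted p = 0.090), which it passed at 0.11 without the third doxycycline library (adjusted p = 0.042) and at 0.12 without the third DMSO library (adjusted p = 0.033). Against the EV effect the shAMB effect was lower by a log2 difference of -0.37 (adjusted p = 4.5e-05), which was -0.15 and not called on log2(TPM + 1) values (adjusted p = 0.059, limma). In the xenografts DROSHA read 133.3, 144.1, 113.6 and 133.7 CPM with control food and 92.2, 106.3, 102.5 and 125.3 CPM in the tumours labelled KO. These groups overlapped, and the log2 difference of -0.30 lay at the threshold (adjusted p = 0.048). Leaving out 1 library ended this call in 6 of 8 cases (adjusted p 0.069 to 0.12), every case but those without control tumour 3 or the fourth KO-labelled tumour.

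DGCR8, the RNA-binding partner of DROSHA, gave no call that held. With shAMB its means were 112.2 ± 5.29 CPM in DMSO and 126.5 ± 6.71 CPM in doxycycline (log2 fold change 0.17, adjusted p = 0.032, edgeR). The call was lost without the second DMSO or the third doxycycline library (adjusted p 0.14 in each), and the direction turned to -0.18 (adjusted p = 2.7e-06) once trends with GC content and length were removed. In sh4 and the xenografts DGCR8 had log2 values of 0.11 and -0.20 (adjusted p 0.20 and 0.16). The sh4 value was called on log2(TPM + 1) values (0.28, adjusted p = 0.0035, limma) and with GC and length trends removed (0.095, adjusted p = 0.0020, edgeR). With those trends removed the xenograft value was called as well (-0.31, adjusted p = 0.0041).

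XPO5, which exports hairpins from the nucleus, was lower with shAMB and in the xenografts labelled KO. In culture it read 294.4, 300.2 and 299.5 CPM in DMSO and 268.5, 249.3 and 249.8 CPM in doxycycline (log2 fold change -0.22, SE 0.043, adjusted p = 0.00032, edgeR). In the tumours it read 309.5, 276.4, 288.0 and 278.5 CPM with control food and 203.3, 207.7, 226.7 and 239.8 CPM with the KO label (log2 difference -0.39, SE 0.086, adjusted p = 0.0040). Neither pair of groups overlapped. On log2(TPM + 1) values the shAMB fall was -0.041 and the xenograft difference -0.34 (adjusted p = 0.69 for the latter, limma), and neither was called. With sh4 the log2 fold change of XPO5 was -0.013 (95% interval -0.10 to 0.078, adjusted p = 0.83), and 2 alternatives called it in opposite directions, at -0.13 with GC and length trends removed (adjusted p = 0.0019) and at 0.16 on log2(TPM + 1) values (adjusted p = 0.011, limma).

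Another 14 nuclear processing genes, which accompany DROSHA and DGCR8, were listed and tested. In sh4 1 rose and 3 fell (median log2 fold change -0.073), in shAMB 0 rose and 7 fell (median -0.15), and in the xenografts 0 were higher and 4 lower (median -0.23), beside all-gene medians of -0.0046, 0.096 and 0.020. Over all genes 18%, 28.4% and 19.9% were lower, and leaving out 1 tumour gave 2 to 6 lower in the xenografts. RAN, the GTPase that XPO5 needs to bind its cargo, fell by 0.30 with sh4, by 0.41 with shAMB and by 0.38 in the xenografts (adjusted p 0.00049, 1.1e-05 and 0.031, edgeR), the last of which lost its call in 5 of 8 cases of leaving out 1 tumour (adjusted p 0.056 to 0.087). HNRNPA1, which is known to bind the miR-18a hairpin of this cluster, fell by 0.39, 0.37 and 0.47 (adjusted p 1.2e-05, 8.2e-06 and 0.0037). ADAR, an RNA editor, fell by 0.38 with shAMB and by 0.50 in the xenografts, and DDX17, a helicase of the DROSHA complex, fell by 0.30 with shAMB. The direction of this list depended on the scaling. On log2(TPM + 1) values 4 of its genes rose and 2 fell with sh4, and 5 rose and 3 fell with shAMB. In the xenografts 0 were called on these values, so RAN, HNRNPA1 and ADAR lost their calls. The shAMB fall of DDX17 was not called on them either (-0.12, adjusted p = 0.087, limma).

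DICER1, the cytoplasmic nuclease, fell with sh4. It read 213.9, 212.1 and 236.9 CPM in DMSO and 183.1, 187.7 and 155.9 CPM in doxycycline (log2 fold change -0.33, SE 0.076, adjusted p = 0.0025, edgeR), and the groups did not overlap. Without the third doxycycline library the value was -0.25 (adjusted p = 0.0088), and the call was lost on log2(TPM + 1) values (-0.16, adjusted p = 0.14, limma). With shAMB it read 227.4, 253.7 and 231.8 CPM in DMSO and 279.6, 253.8 and 267.8 CPM in doxycycline, and the log2 fold change of 0.17 missed the threshold (95% interval 0.0066 to 0.33, adjusted p = 0.062), although it passed at 0.21 without the second DMSO library (adjusted p = 0.040). The shAMB value was also called on log2(TPM + 1) values (0.34, adjusted p = 0.0028, limma) and with GC and length trends removed (0.10, adjusted p = 0.0025). The difference between the sh4 and shAMB effects was -0.50 (adjusted p = 0.0010). Against the EV effect the sh4 effect was -0.23 (adjusted p = 0.11). It was called with the trends removed (-0.47, adjusted p = 1.8e-08) and without the first EV DMSO library (-0.31, adjusted p = 0.039). Without the third sh4 doxycycline library it was -0.15 (adjusted p = 0.21).

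In the xenografts DICER1 read 581.1, 466.5, 481.0 and 472.7 CPM with control food and 491.5, 627.2, 590.0 and 665.4 CPM in the tumours labelled KO. The groups overlapped and the log2 difference of 0.25 was not called (95% interval -0.010 to 0.50, adjusted p = 0.12, edgeR). Without the first KO-labelled tumour, the lowest of its group, it was 0.32 (adjusted p = 0.028).

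TARBP2, the double-stranded RNA-binding partner of DICER1, was the most scattered member. In sh4 it read 18.7, 14.9 and 11.4 CPM in DMSO and 8.36, 9.81 and 19.2 CPM in doxycycline, so the third doxycycline library was the highest of the 6 while the others were the lowest. Its log2 fold change was -0.27 (adjusted p = 0.43, edgeR) with that library and -0.72 (adjusted p = 0.0089) without it. With shAMB it was 0.34 (95% interval -0.23 to 0.90, adjusted p = 0.28), and in the xenografts -0.34 (95% interval -0.95 to 0.27, adjusted p = 0.36). With GC and length trends removed TARBP2 was called lower in both, at -0.31 with shAMB (adjusted p = 0.014), where the direction turned, and at -0.48 in the xenografts (adjusted p = 0.0072).

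The 9 other partners of DICER1 and of Argonaute loading are mostly chaperones. As background to their counts, sh4 called 40.9% of all genes, shAMB 66% and the tumour comparison 41.1%. In sh4 1 rose and 3 fell (median log2 fold change -0.14), in shAMB 1 rose and 5 fell (median -0.19), and in the xenografts 0 were higher and 2 lower (median -0.13), again beside -0.0046, 0.096 and 0.020 over all genes. In the xenografts 1 was lower in 6 of 8 cases of leaving out 1 tumour. The sh4 split was 3 up and 2 down on log2(TPM + 1) values. In the xenografts 0 were called on those values, so HSP90AB1 was not called there. HSP90AB1, a chaperone that holds Argonaute open for loading, fell by 0.38 with sh4, by 0.67 with shAMB and by 0.54 in the xenografts (adjusted p 7.3e-06, 4.7e-09 and 0.0054, edgeR). Its stress-induced relative HSP90AA1 fell by 0.64 with shAMB. PTGES3, a cochaperone of HSP90, fell by 0.42 with sh4 and by 0.51 with shAMB, and HSPA8, a constitutive HSP70 chaperone, fell by 0.45 with shAMB.

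The Argonautes changed against each other. AGO2, the only human Argonaute that is an efficient slicer, fell with sh4 and rose with shAMB. In the sh4 line it read 20.0, 17.2 and 16.9 CPM in DMSO and 11.9, 12.4 and 13.8 CPM in doxycycline (log2 fold change -0.51, SE 0.094, adjusted p = 0.00040, edgeR). In the shAMB line it read 16.2, 16.2 and 15.9 CPM in DMSO and 29.0, 28.5 and 34.1 CPM in doxycycline (log2 fold change 0.92, SE 0.093, adjusted p = 4.0e-07). In the xenografts it read 48.7, 63.4, 49.5 and 53.0 CPM with control food and 76.3, 76.7, 80.6 and 79.1 CPM with the KO label (log2 difference 0.54, SE 0.096, adjusted p = 0.0012). Groups overlapped in none of these comparisons. On log2(TPM + 1) values the xenograft difference was 0.53 and not called (adjusted p = 0.35, limma). The sh4 and shAMB effects on AGO2 differed by -1.43 (adjusted p = 2.6e-07), and each differed from the EV effect, by -0.60 (adjusted p = 0.0028) and 0.84 (adjusted p = 9.3e-05).

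AGO3 gave the largest rise of any member with shAMB. It read 13.5, 13.6 and 13.7 CPM in DMSO and 31.5, 27.6 and 30.1 CPM in doxycycline, and every treated library was at about the same raised level (log2 fold change 1.13, SE 0.066, adjusted p = 7.9e-10, edgeR). Tumours labelled KO read 47.5, 60.8, 59.0 and 74.7 CPM and control tumours 32.2, 33.4, 26.4 and 27.3 CPM (log2 difference 1.02, SE 0.14, adjusted p = 0.00025). AGO3 was the member whose xenograft difference was also called on log2(TPM + 1) values. With sh4 it read 13.4, 13.8 and 14.4 CPM in DMSO and 16.0, 17.1 and 15.5 CPM in doxycycline (log2 fold change 0.22, adjusted p = 0.012). This smaller rise lost its call without the first DMSO or the second doxycycline library (adjusted p 0.067 to 0.088), with no filter on low counts (adjusted p = 0.064), with GC and length trends removed (0.12, adjusted p = 0.11) and with the compared groups alone (adjusted p = 0.10). Against the EV effect the log2 difference was 0.38 for sh4 (adjusted p = 0.0056), or 0.19 and not called with the trends removed (adjusted p = 0.099), and 1.28 for shAMB (adjusted p = 2.9e-08).

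Per kb AGO1 was the highest Argonaute in every group but the KO-labelled xenografts, where it had 20.0 and AGO2 22.3 CPM per kb. AGO1 went the other way. It read 107.0, 104.4 and 102.4 CPM in DMSO and 91.0, 84.1 and 89.5 CPM in doxycycline with shAMB (log2 fold change -0.25, SE 0.041, adjusted p = 7.7e-05, edgeR). Control xenografts read 193.8, 204.4, 174.6 and 185.4 CPM and those labelled KO 139.4, 154.9, 150.3 and 154.3 CPM (log2 difference -0.34, SE 0.081, adjusted p = 0.0063). The groups were separate in both. On log2(TPM + 1) values the shAMB fall was -0.066 and the xenograft difference -0.27 (adjusted p = 0.74 for the latter, limma), and neither was called. With sh4 AGO1 read 105.7, 103.2 and 107.9 CPM in DMSO and 111.3, 119.7 and 111.0 CPM in doxycycline (log2 fold change 0.11, adjusted p = 0.040). This call was lost in 3 of 6 cases of leaving out 1 library, namely the first or second DMSO or the second doxycycline library (adjusted p 0.14 to 0.21). It was also lost with RLE scaling, DESeq2, no filter and the compared groups alone (adjusted p 0.099, 0.091, 0.22 and 0.19), and with GC and length trends removed the value turned to -0.014. AGO1 (chr1:35869761-35930532) and AGO3 (chr1:35930718-36072500) lie 185 bases apart on the plus strand, and they moved in opposite directions with shAMB and in the xenografts.

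**Figure D3:**
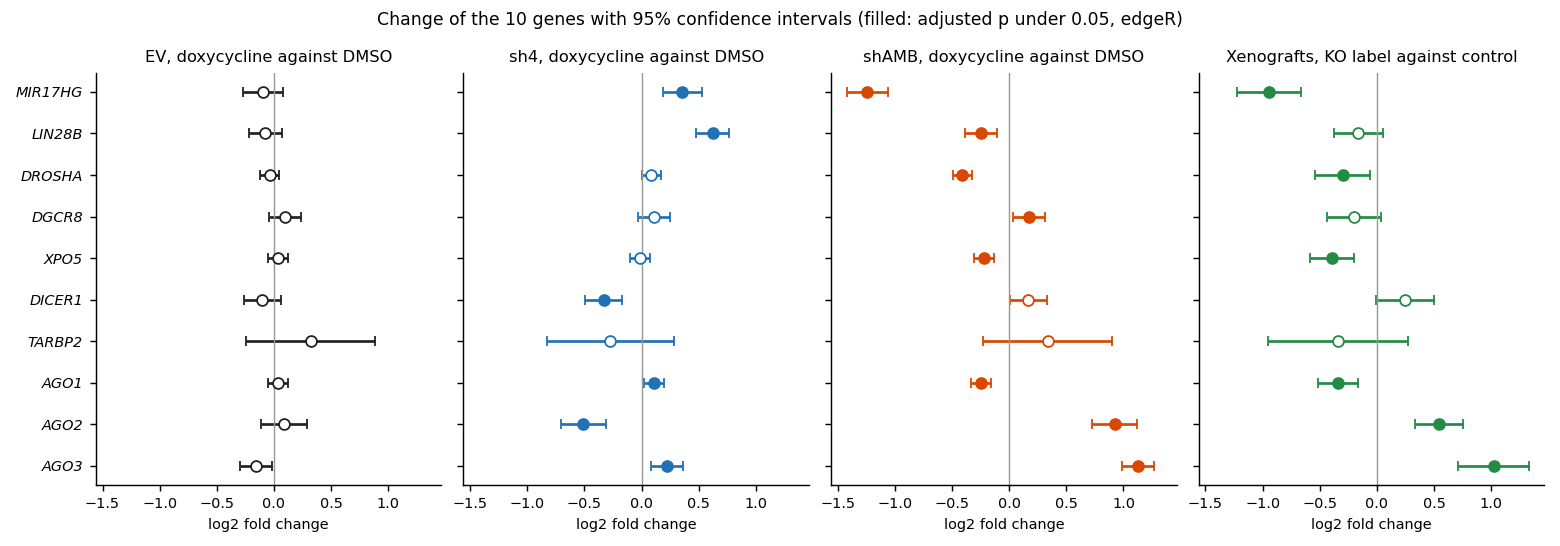
Log2 fold change of each of the 10 genes with its 95% interval, for doxycycline against DMSO in each line and for KO-labelled against control xenografts; filled points passed adjusted p under 0.05. MIR17HG, AGO2 and AGO3 show the widest spread between comparisons, for example MIR17HG at 0.36 with sh4 and -1.24 with shAMB.

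AGO4, the fourth human Argonaute and a gene of the chaperone and partner list, was not called in any of these comparisons (log2 fold change -0.090 with sh4, 0.013 with shAMB and -0.18 in the xenografts, adjusted p 0.34, 0.88 and 0.11, edgeR), and its sign changed with the scaling in culture. With GC and length trends removed AGO4 was called lower in sh4 (-0.24, adjusted p = 0.00022) and in the xenografts (-0.33, adjusted p = 0.0013). As a share of the CPM per kb of AGO1 to AGO4, AGO1 made up 50.1 ± 0.606% in shAMB with DMSO and 34.4 ± 0.588% with doxycycline (SD, n = 3 each). AGO2 went from 16.5 ± 0.288% to 25.4 ± 1.91% and AGO3 from 13.4 ± 0.464% to 23.7 ± 0.756%. In the xenografts (n = 4 each) AGO1 made up 46.2 ± 0.723% with control food and 31.2 ± 1.05% with the KO label, AGO2 27.9 ± 1.97% and 34.8 ± 1.98%, and AGO3 14.9 ± 0.912% and 25.7 ± 3.04%. With sh4 the shift was another: AGO1 went from 49.8 ± 0.407% to 54.0 ± 0.513%, AGO2 from 18.2 ± 1.62% to 12.9 ± 1.28% and AGO3 from 13.4 ± 0.516% to 15.7 ± 0.264%. The EV shares were 48.9 ± 0.766% and 50.3 ± 0.567% for AGO1. The summed Argonaute level was 27.9 CPM per kb in shAMB with DMSO and 34.3 with doxycycline, and 28.3 and 28.2 in sh4.

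**Figure D4:**
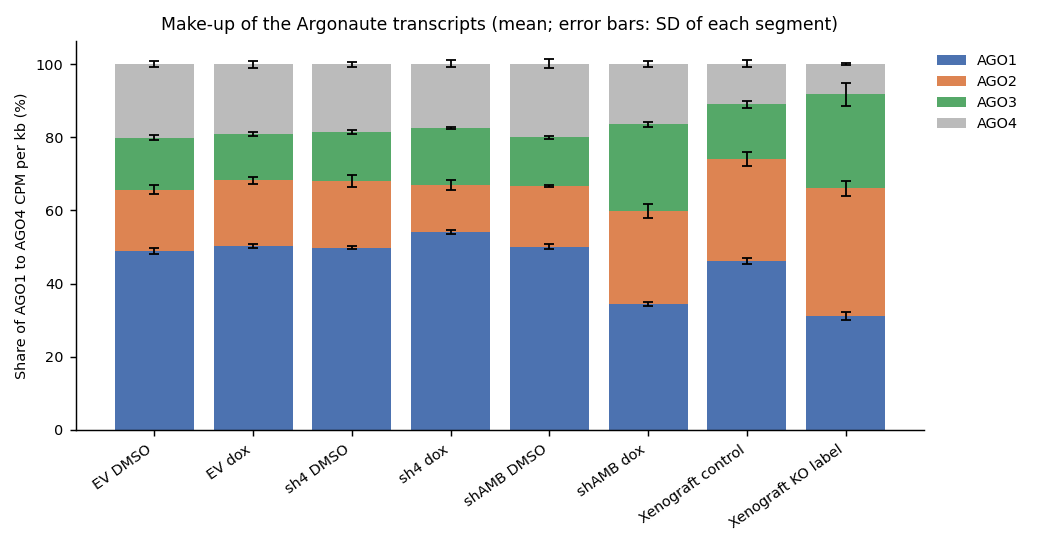
Share of each Argonaute in the summed CPM per kb of AGO1 to AGO4, by group (mean and SD over 3 culture or 4 xenograft libraries). AGO1 falls from 50.1% to 34.4% with induced shAMB and from 46.2% to 31.2% in KO-labelled xenografts, while AGO2 and AGO3 gain.

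Downstream of the Argonautes, 25 silencing effectors were listed and tested. The share of all genes past the threshold was 40.9% with sh4, 66% with shAMB and 41.1% between the tumour groups. In sh4 10 rose and 7 fell (median log2 fold change 0.046, all genes -0.0046), in shAMB 13 rose and 8 fell (median 0.17, all genes 0.096), and in the xenografts 6 were higher and 3 lower (median 0.056, all genes 0.020). With GC and length trends removed the splits turned to 8 up and 12 down in sh4, 9 and 11 in shAMB, and 4 and 9 in the xenografts. Without the second sh4 doxycycline library 5 rose with sh4, and 6 without the second DMSO library. TNRC6A, the scaffold that links Argonaute to deadenylases, rose by 0.62, 0.79 and 0.79 (adjusted p 4.6e-08, 1.1e-09 and 0.00035, edgeR). PABPC1, the poly(A)-binding protein that TNRC6 proteins contact, fell by 0.29, 0.76 and 0.62 (adjusted p 0.00038, 7.3e-09 and 0.0014). On log2(TPM + 1) values the xenograft differences of TNRC6A and PABPC1 were not called (adjusted p 0.12 and 0.46, limma). Nor was the sh4 fall of PABPC1 called on them (-0.12, adjusted p = 0.076). MOV10, a helicase found with Argonaute, rose by 1.25 with sh4 and 0.84 with shAMB. EDC4, a scaffold of messenger RNA decapping, rose by 0.81 with shAMB, but by 0.047 with no call once GC and length trends were removed.

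Known targets were counted on both branches. Of 27 listed let-7 targets 24 were tested. Their counts stand beside 40.9%, 66% and 41.1% of all genes called in sh4, shAMB and the xenografts. In sh4 12 rose and 4 fell (median log2 fold change 0.19, all genes -0.0046), in shAMB 9 rose and 4 fell (median 0.064, all genes 0.096), and in the xenografts 4 were higher and 7 lower (median -0.096, all genes 0.020). With GC and length trends removed the shAMB split was 9 up and 9 down. Besides MYCN and TRIM71, HRAS, a RAS family GTPase, rose by 0.97 with shAMB (adjusted p = 0.013, edgeR), a call lost without the second DMSO library (adjusted p = 0.053) and with GC and length trends removed (0.062). RRM2, the small subunit of ribonucleotide reductase, fell by 0.84 with shAMB and by 1.03 in the xenografts (adjusted p 1.8e-08 and 4.0e-05). The xenograft call of RRM2 was lost on log2(TPM + 1) values (-0.97, adjusted p = 0.068, limma). DNA2, a nuclease and helicase of DNA repair in this list, was also the gene whose profile was closest to that of LIN28B, with log2 fold changes of 0.57 in sh4 (adjusted p = 6.3e-06), -0.24 in shAMB (adjusted p = 0.0051) and -0.39 in the xenografts (adjusted p = 0.016). The shAMB call of DNA2 was lost on log2(TPM + 1) values (-0.064, adjusted p = 0.46, limma). It was also lost with GC and length trends removed (-0.043, adjusted p = 0.065, edgeR). Its xenograft call was lost on log2(TPM + 1) values (-0.34, adjusted p = 0.67, limma) and with the replicate number as a block (adjusted p = 0.055, edgeR).

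Targets of miR-17-92 numbered 28 symbols, of which 25 were tested in culture and 24 in the xenografts. In sh4 11 rose and 4 fell (median log2 fold change 0.18). In shAMB 7 rose and 11 fell (median -0.16), and in the xenografts 6 were higher and 10 lower (median -0.30). These medians stood beside the all-gene values of -0.0046, 0.096 and 0.020, and the counts beside 40.9%, 66% and 41.1% of all genes called. The shAMB split was 9 up and 9 down on log2(TPM + 1) values. TGFBR2, a TGF-beta receptor, rose by 0.49 with sh4 and fell by 1.23 with shAMB and by 1.61 in the xenografts (adjusted p 0.00092, 6.0e-08 and 0.00099, edgeR). NR4A3, a nuclear receptor, rose by 0.93 with sh4 and fell by 0.93 with shAMB and by 0.88 in the xenografts. HIF1A, the oxygen-responsive transcription factor, fell by 1.13 with shAMB and by 0.75 in the xenografts. ZFPM2, a cofactor of GATA factors, fell in all of them, by 0.36, 1.11 and 0.85. On log2(TPM + 1) values the xenograft falls of NR4A3, HIF1A and ZFPM2 were not called (adjusted p 0.15, 0.27 and 0.13, limma).

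**Figure D5:**
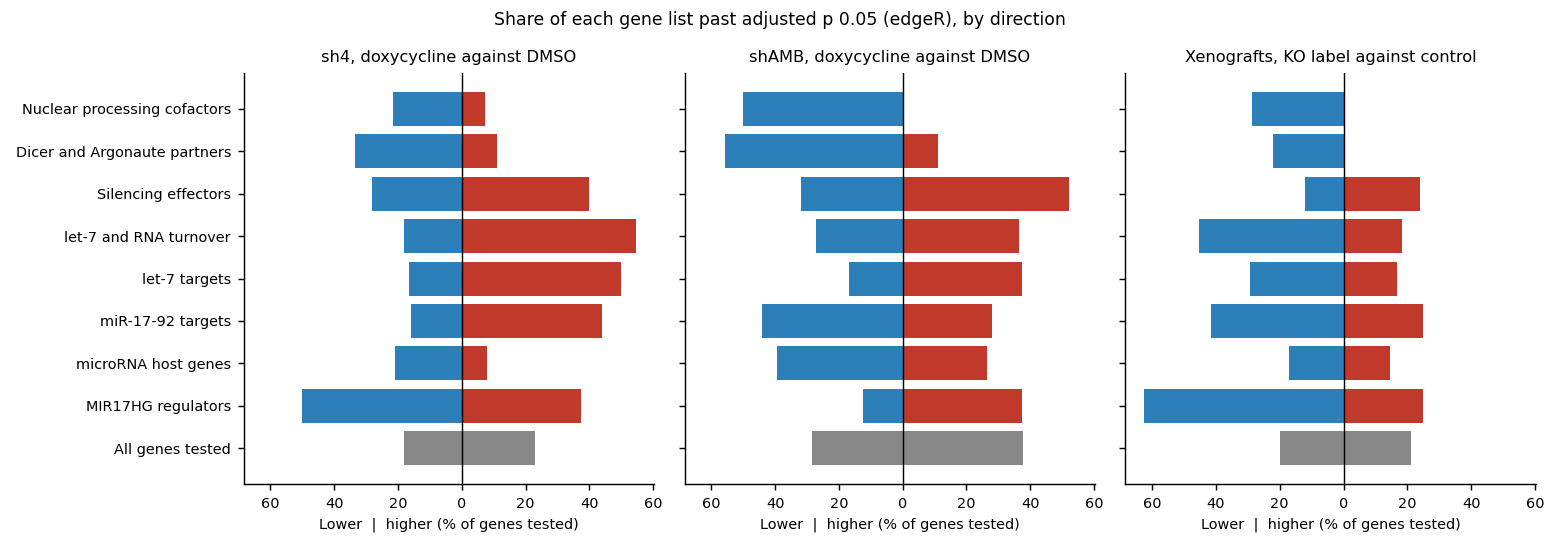
Share of the tested genes of each list (bars, % of genes, lower to the left and higher to the right) past adjusted p under 0.05 in sh4, shAMB and the xenografts, with all genes in grey. Targets of miR-17-92 split 11 up and 4 down with sh4, 7 up and 11 down with shAMB, and 6 up and 10 down in the xenografts.

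Other microRNA host transcripts did not move as one with MIR17HG. Of 57 symbols, 47 were present and 38 were tested in culture, MIR17HG among them. All-gene shares were 22.9% higher and 18% lower in sh4, 37.6% and 28.4% in shAMB, and 21.2% and 19.9% in the xenografts. In sh4 3 rose and 8 fell (median log2 fold change 0.024), in shAMB 10 rose and 15 fell (median -0.036), and in the xenografts 6 of 41 were higher and 7 lower (median -0.073), against all-gene medians of -0.0046, 0.096 and 0.020. The split turned, on log2(TPM + 1) values, to 14 up and 3 down in sh4 and to 14 up and 13 down in shAMB. DLEU2, the host of miR-15a and miR-16-1, fell by 1.21 with shAMB (adjusted p = 2.7e-07, edgeR). EGFL7, the host of miR-126, rose by 1.48 with shAMB (adjusted p = 0.0066), although by 0.33 with no call once GC and length trends were removed, and MIR4697HG rose by 1.07 (adjusted p = 7.0e-07). EGFL7 is also among the 6 endothelial markers summed above, so their higher sum with induced shAMB contains EGFL7 and is not separate from this value. These were cultures of the KELLY line, and what raised the sum was not tested.

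Set against the EV effect, 4 members differed in sh4 (MIR17HG, LIN28B, AGO2 and AGO3) where 32.6% of all genes did, and 6 in shAMB (MIR17HG, DROSHA, XPO5, AGO1, AGO2 and AGO3) where 45.5% did. On log2(TPM + 1) values the shAMB differences of DROSHA, XPO5 and AGO1 from EV were not called (-0.15, -0.036 and -0.060, adjusted p 0.059, 0.67 and 0.52, limma), and those of DGCR8 and DICER1 were (0.29 and 0.48, adjusted p 0.024 and 0.0046). Between the sh4 and shAMB effects 8 members differed, all but DGCR8 and TARBP2, where 60.9% of all genes did. These comparisons share their control libraries. Without the third sh4 doxycycline library the counts were 8 for sh4 against DMSO, 6 for sh4 against EV and 9 for sh4 against shAMB, while the shares of all genes called rose as well, to 53.4%, 50.1% and 66.8%.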

How the data were processed

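RNA of 18 KELLY cultures and 8 xenografts was sequenced as paired reads on a NovaSeq after a SMARTer stranded total RNA kit. The submitters' processing notes name hg38, STAR, SAMtools and RSEM, and the versions for these libraries are not given in the sources used here. The authors deposited, for cultures and tumours separately, estimated counts per gene (expected counts), of which 91.8% and 91.0% were whole. TPM values, also deposited by the authors, served for an alternative. Columns were matched to groups by name, with Neg and Pos read as DMSO and doxycycline, and 0 columns of per-sample values were left unused. Whether mouse reads were removed, and whether strand was used in counting, is not given.

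The deposited counts were rounded to whole numbers, filtered with filterByExpr (14905 and 15960 genes kept) and scaled by TMM, and CPM values were computed from these scaled totals. Each of 9 comparisons was tested in edgeR 4.0.16 (R 4.3.3) with the quasi-likelihood test, all groups of a table in one fit, without a replicate block, and with Benjamini-Hochberg adjustment over all genes (threshold 0.05). Member counts per library, which limit precision, were lowest for TARBP2 and highest for LIN28B in culture and DICER1 in the xenografts. Alternatives were RLE scaling, DESeq2 1.42.0, no filter, a replicate block, limma 3.58.1 on log2(TPM + 1) for genes with a mean TPM of at least 1, removal of GC content and length trends (splines with 5 degrees of freedom, for genes with a GC value, 23161 of 26485 symbols), the compared groups alone, and leaving out each library. Levels per kb used the gene lengths in the deposited culture table, whereas the GC content and lengths of the trend removal came from GENCODE v44 transcripts, and 25378 symbols matched RefSeq.

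All 10 members were named in every comparison. From each list up to 4 genes were named, those with the largest absolute log2 fold change in shAMB among called genes averaging 1 CPM or more. The 5 genes closest in profile to LIN28B and MIR17HG were named by Pearson correlation, and DNA2 was described further after its values were seen. The members and lists were chosen with earlier results of these data known, so no list is independent evidence. To see whether replicate numbers pair the libraries, deviations of same-numbered libraries from their group means were correlated (r from -0.603 to 0.374), and the numbers were not taken as pairs.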

Additional observations from a re-analysis of the deposited data

Results flagged for a closer look

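Extreme libraries within groups of 4 were looked for by the gap to the nearest library over the range of the group, a check that chance passes in about 1 of 20 groups. The first control xenograft had a DICER1 level of 581.1 CPM, above the others by 0.873 of the range. The third KO-labelled xenograft had a MIR17HG level of 58.7 CPM, below the others by 0.865 of the range.

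Effects of doxycycline that differed between lines by the test of the difference itself (edgeR, adjusted p under 0.05) are given as log2 differences. Between sh4 and the empty vector they were 0.45 for MIR17HG, 0.70 for LIN28B, -0.60 for AGO2 and 0.38 for AGO3. Between shAMB and the empty vector they were -1.15 for MIR17HG, -0.37 for DROSHA, -0.26 for XPO5, -0.28 for AGO1, 0.84 for AGO2 and 1.28 for AGO3. Between sh4 and shAMB they were 1.60 for MIR17HG, 0.87 for LIN28B, 0.50 for DROSHA, 0.21 for XPO5, -0.50 for DICER1, 0.36 for AGO1, -1.43 for AGO2 and -0.90 for AGO3. The control libraries are shared between these differences.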

How the results depend on the processing

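Over the 90 results on members (10 genes in 9 comparisons), 1340 alternative values were computed. Of these 1217 kept direction and side of the threshold, 43 lost the call, 33 gained one and 47 changed sign, 40 of the latter with neither value past the threshold.

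The number of members called moved by more than 1.5 times in 3 cases: removal of GC and length trends gave 10 for shAMB against the EV effect (6 as reported) and 1 for the sh4 line against the EV line (0), and log2(TPM + 1) gave 1 in the xenografts (6). The share of all genes called moved too, to 61.8% (45.5% as reported), 6.87% (1.12%) and 6.62% (41.1%). With GC and length trends removed, signs turned in EV for LIN28B (0.020), in sh4 for DROSHA (-0.043) and AGO1 (-0.014), in shAMB for DGCR8 (-0.18) and TARBP2 (-0.31), in sh4 against EV for DROSHA (-0.023) and AGO1 (-0.062), in shAMB against EV for DGCR8 (-0.18) and TARBP2 (-0.43), in sh4 against shAMB for DGCR8 (0.27) and TARBP2 (0.23), in the sh4 line against EV for DROSHA (0.0069), and in the shAMB line against EV for LIN28B (-0.0076), DROSHA (-0.025), TARBP2 (0.034) and AGO1 (0.0051). On log2(TPM + 1) they turned for XPO5 (-0.0049) and AGO1 (-0.0058) in EV, XPO5 in sh4 (0.16) and in sh4 against EV (0.17), and LIN28B in shAMB against EV (0.048). DGCR8 turned in sh4 against EV with no filter (-0.016) and in sh4 against shAMB with RLE scaling and DESeq2 (0.0029 each). TARBP2 in shAMB against EV, 0.015 as reported, was -0.039 with RLE scaling, -0.037 with DESeq2, -0.031 with no filter and -0.053 with the compared groups alone.

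For the listed genes named, RUNX1T1 and AGO4, 903 of 980 alternative values kept direction and call, 56 lost the call (17 of them in the xenografts on log2(TPM + 1)), 6 gained one and 15 changed sign. In sh4 these were ADAR with GC and length trends removed (-0.017) and CCND1 (0.024), AGO4 (0.076) and RUNX1T1 (0.057) on log2(TPM + 1). In shAMB they were AGO4, with -0.062 by RLE scaling and by DESeq2, -0.032 with no filter, -0.081 with the trends removed and -0.068 with the compared groups alone, and RUNX1T1, with -0.019, -0.018, -0.017 and -0.024 by RLE scaling, DESeq2, trend removal and groups alone.

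Leaving out 1 library, values changed sign for XPO5 in sh4 (-0.049 to 0.026), DGCR8 in sh4 against EV (-0.066 to 0.066), TARBP2 in shAMB against EV (-0.19 to 0.19), and, between lines with DMSO, for DGCR8 (-0.066 to 0.033) and AGO2 (-0.024 to 0.13) in sh4 and DROSHA (-0.012 to 0.032), XPO5 (-0.029 to 0.0013) and TARBP2 (-0.34 to 0.041) in shAMB. AGO4 in shAMB ran from -0.059 to 0.054.

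With the replicate number as a block, 64 of 70 values kept direction and call. AGO1 and AGO3 in sh4, DGCR8 in shAMB, XPO5 in sh4 against shAMB (adjusted p = 0.056, edgeR) and DROSHA in the xenografts lost it, and TARBP2 in shAMB against EV turned to -0.024. Of 13 same-numbered pairs 2 correlated best with their own number. No block could be fitted between lines with DMSO.

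Scaling changed the balance of calls over all genes. In sh4 3410 genes were higher and 2681 lower, and 5293 and 1321 on log2(TPM + 1). In shAMB 5602 were higher and 4238 lower, 4446 and 5469 with GC and length trends removed, 6338 and 2637 on log2(TPM + 1). In the xenografts 3382 were higher and 3173 lower, 3195 and 4907 with the trends removed, and 379 and 340 on log2(TPM + 1). The TPM scale moved the all-gene median log2 change from -0.0046 to 0.14 in sh4 and from 0.096 to 0.21 in shAMB. Of 2144 alternative counts of listed genes, 250 moved by more than 1.5 times, 51 of them with GC and length trends removed and 46 on log2(TPM + 1). Leaving out 1 library moved 86 of them. In the xenografts the counts then ran from 2 to 6 (nuclear processing, lower), 1 to 4 (let-7 turnover, higher), 2 to 6 (let-7 targets, higher), 3 to 5 (miR-17-92 targets, higher, 6 as reported) and 6 to 12 (host transcripts, lower), and from 3 to 5 for let-7 turnover and silencing effectors (both lower), and 1 to 2 for Dicer and Argonaute partners (lower). In sh4 they ran from 5 to 10 for silencing effectors (higher) and for host transcripts (lower). The cause of these changes was not tested.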

Other observations

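LIN28A was at a different order of level in the tumours than in culture. Its mean was 0.444 to 2.41 CPM over the 6 culture groups, 180.1 ± 32.7 CPM in control xenografts and 126.7 ± 20.0 CPM in those labelled KO (SD, n = 4 each). The tables were scaled separately, so no fold is given between them. Within the xenografts the log2 difference was -0.51 (adjusted p = 0.020, edgeR), a call lost without control tumour 3 or control tumour 4 (adjusted p 0.055 and 0.061), and the groups overlapped, with control values from 134.9 to 205.8 CPM and KO-labelled values from 98.7 to 145.9 CPM. This difference was also not called on log2(TPM + 1) values (-0.44, adjusted p = 0.54, limma). With DMSO the hairpin lines had LIN28A log2 values of 0.83 (sh4) and 0.73 (shAMB) against EV, with adjusted p of 0.086 and 0.16.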
